A study of Mus musculus with 2 samples.

Results

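The proteasome is the protease that degrades most short-lived and misfolded proteins of the cytosol and nucleus once they carry chains of ubiquitin. Its barrel-shaped 20S core is built of 2 outer rings of alpha subunits, encoded by Psma genes, and 2 inner rings of beta subunits, encoded by Psmb genes. Psmb5, Psmb6 and Psmb7 carry the active sites. The 19S regulatory particle binds the ends of the core. Its base (Psmc ATPases with Psmd1, Psmd2 and Psmd4) unfolds the substrate. Its lid (with Psmd3, Psmd6, Psmd7, Psmd8, Psmd11, Psmd12, Psmd13 and Psmd14) removes the ubiquitin. In antigen-presenting cells, macrophages among them, interferon-gamma induces Psmb8, Psmb9 and Psmb10, which replace the constitutive active-site subunits and change the peptides made for MHC class I. Those 3 inducible genes were therefore left out when the members were chosen by symbol. The constitutive set took every symbol that starts with Psma, Psmb, Psmc, Psmd, Psme, Psmf or Psmg and a digit, and it held 46 of the 22886 genes in the files. The rule used symbols and no measured value of a gene.

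The data were 2 RNA sequencing libraries from wild type C57BL/6 mice carrying a subcutaneous LLC tumor, a Lewis lung carcinoma. One mouse group had received vehicle and the other clodronate, an agent that depletes phagocytes when given in liposomes. The labels call the sorted cells aerobic tumor cells and give no sorting markers, ages or number of mice, and their growth protocol describes EML cells, a blood progenitor line, which goes against the other labels. The condition of each library was taken from its label. There was 1 library per condition, so every difference in the text is between 2 libraries, with no replicate error, no test and no p-value. The values are RPKM, read counts scaled to transcript length and to the mapped reads of the library, which can be compared between genes because they are per length.

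The libraries did not look like tumor epithelium. All 10 macrophage markers examined, among them Lyz2 and Csf1r, had at least 22.5 RPKM in both libraries. Their summed level was 22693 RPKM with vehicle and 21573 RPKM with clodronate, whereas the 5 epithelial markers summed to 12.8 and 11.0 RPKM. Of these, Epcam and Krt19 were listed at 0 in both libraries. Cdh1 (6.14 and 6.44 RPKM), Krt8 (3.67 and 1.33 RPKM) and Krt18 (2.97 and 3.19 RPKM) were present at low levels. Other marker lists moved between the libraries. Interferon response genes were higher in the clodronate library for 6 of 7 (sums of 110 and 308 RPKM), proliferation genes for 5 of 6 (218 and 286 RPKM) and endothelial genes for 3 of 3 (2.37 and 7.40 RPKM), and fibroblast genes were lower for 5 of 6 (154 and 75.1 RPKM). The T and NK cell genes (0.837 and 1.10 RPKM in all) and the neutrophil genes found (12.7 and 23.1 RPKM, all from S100a8) were low. The part of these genes in the differences described here was not tested, and in bulk RNA fewer cells of a type and less RNA per cell cannot be told apart. At low values RPKM multiplied by transcript length fell on steps, which put the depth at about 12600000 reads for the vehicle library and 10300000 reads for the clodronate library, a factor of 1.23. Within 0.15 of a whole number of steps lay 69.9% and 70.4% of the 465 and 760 loci used. Read numbers given for a gene are estimates from these steps.

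Proteasome RNA was abundant in both libraries. The 46 members made up 0.535% of the summed RPKM of the vehicle and 0.513% of that of the clodronate library. Of the 46, 44 averaged 1 RPKM or more, the filter used for ratios, and 35 averaged 20 RPKM or more. Within a library, the median member lay above 86.1% (vehicle) and 88.2% (clodronate) of the genes kept. The 3 members with the lowest means were no part of the proteasome of most cells. Psma8, the testis form of an alpha subunit, had 0.731 RPKM with vehicle and 0.597 RPKM with clodronate, and Psmb11, the catalytic subunit of the thymus cortex, had 0.484 and 0.594 RPKM. Psmc3ip, with 1.42 and 0.810 RPKM, matches the symbol rule but encodes no subunit of the proteasome, and its product acts in meiotic recombination.

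**Figure D1:**
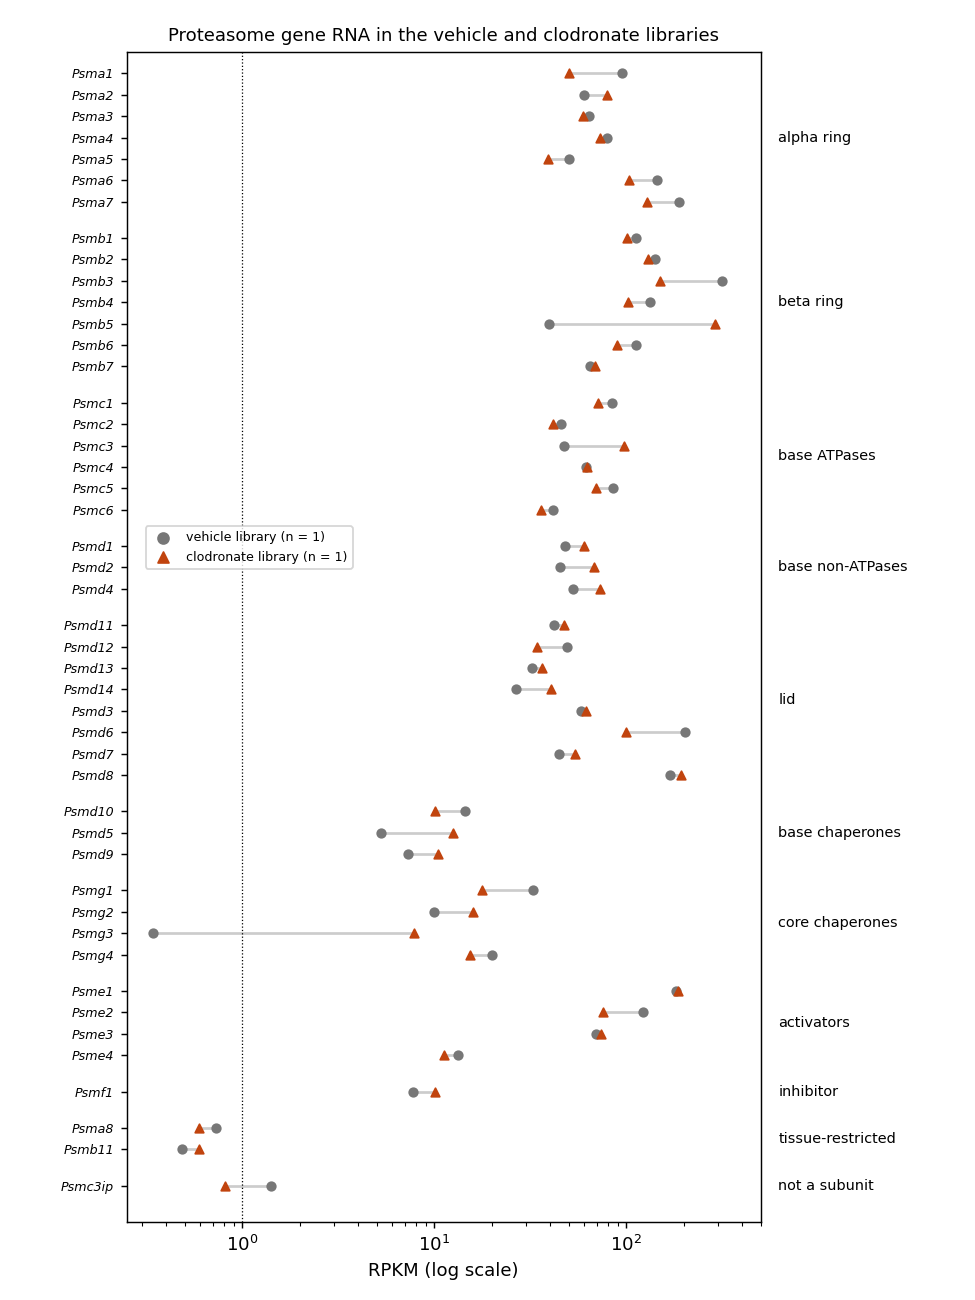
RPKM (log scale) of the 46 genes in the vehicle library (grey circles) and the clodronate library (orange triangles), 1 library each, grouped by place in the complex; the dotted line marks 1 RPKM. Core and regulatory particle subunits lie between 26.7 and 314 RPKM, most assembly chaperones lower, and Psmb5 and Psmg3 show the widest gaps between the libraries.

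A smaller share of the members kept than of all genes kept differed between the libraries. The abundant members were less often higher and more often lower than abundant genes in general, on few genes. A log2 ratio compares clodronate with vehicle after 1 RPKM was added to each value, and a gene was counted as higher or lower when the ratio passed 1.5-fold. Of the 44 members kept, 5 were higher and 5 were lower, 11.4% in each direction. Over all 10982 genes kept, 16.6% were higher and 16.3% lower. Among the 3702 abundant genes, those averaging 20 RPKM or more, 10.4% were higher and 10.9% lower, and of the 35 abundant members 2 were higher (5.71%) and 5 lower (14.3%). The median log2 ratio was -0.11 over the members and 0.019 over all genes kept, and the median size of the ratio regardless of sign was 0.35 for the members and 0.39 for all genes kept. The members that were higher were Psmb5, Psmc3, Psmd5, Psmg2 and Psmg3, and those that were lower were Psma1, Psmb3, Psmd6, Psme2 and Psmg1. Psmg3, with 0.342 RPKM with vehicle and 7.83 RPKM with clodronate, was kept only through the clodronate library. Psmg1, with 32.7 and 17.7 RPKM, counted as abundant only through the vehicle library. Psmd2 and Psmd14 lay just short of the 1.5-fold limit, with log2 ratios of 0.58 each, where the limit is 0.585.

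The alpha ring, which forms the gated entry to the core, was at 681 RPKM with vehicle and 533 RPKM with clodronate when its 7 genes were summed. Psma7 had 188 and 129 RPKM, and Psma6 had 144 and 103 RPKM. These were the most abundant genes of the ring in both libraries. Psma1 showed the largest difference of the ring, with 95.5 RPKM with vehicle and 50.3 RPKM with clodronate, a log2 ratio of -0.91. Psma5 had 50.2 and 39.3 RPKM, the lowest level of the ring in both libraries. Psma4 had 79.0 and 72.7 RPKM, and Psma3 had 64.2 and 59.6 RPKM. Psma2 alone was on the other side of 0, with 60.5 and 79.1 RPKM and a log2 ratio of 0.38. The alpha ring thus had 6 of 7 genes with a ratio below 0, against 5318 of all 10982 genes kept. Its median log2 ratio was -0.35, and only Psma1 passed 1.5-fold. After subtraction of the trends of all genes with GC content and transcript length, 3 of the 7 genes lay above 0 and the median was -0.15.

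Psmb5 was the exception of the core. Its product carries the chymotrypsin-like activity, cleaves after hydrophobic residues and is the main target of the drug bortezomib. Psmb5 had 39.8 RPKM in the vehicle library, the lowest level of the beta ring, and 289 RPKM in the clodronate library, the highest level of the ring. The clodronate value was 7.26 times the vehicle value, a log2 ratio of 2.83, resting on about 451 and 2663 reads. Psmb5 made up 4.33% of the RPKM summed over the beta ring in the vehicle library and 31.1% in the clodronate library. Among 3598 abundant genes with an mRNA accession, only 6 had a ratio as high as that of Psmb5, itself included. The other 5, chosen after their values were seen, were Prmt2, Sptssa, Ifitm6, Dgcr8 and Stub1. Prmt2 had 20.2 RPKM with vehicle and 321 RPKM with clodronate, and Sptssa had 20.2 and 924 RPKM. Ifitm6 (0 and 43.7 RPKM), Dgcr8 (2.04 and 163 RPKM) and Stub1 (10.8 and 752 RPKM) counted as abundant only through the clodronate library. Stub1 encodes a ubiquitin ligase that passes chaperone clients to the proteasome. Psmb5 has 1 pseudogene transcript in GENCODE M21 that matches its own over 796 nt at 98.9% identity. How reads shared with such a copy were assigned is not given in the sources used here.

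The other 6 beta genes did not follow Psmb5. Psmb3, a structural subunit, had 314 RPKM with vehicle and 149 RPKM with clodronate, a log2 ratio of -1.07, and stood highest among all members in the vehicle library. Psmb3 has 3 pseudogenes of at least 95% identity, the longest match covering 618 nt. Psmb4 had 134 and 102 RPKM, and Psmb1 had 112 and 101 RPKM. Psmb2 had 141 and 130 RPKM. Of the other active-site genes, Psmb6, which provides the caspase-like activity, had 113 and 89.2 RPKM, and Psmb7, which provides the trypsin-like activity, had 64.5 and 68.4 RPKM. Their log2 ratios were -0.34 and 0.082, so the 3 constitutive active-site genes differed widely among themselves. The sum over the beta ring was 918 RPKM with vehicle and 929 RPKM with clodronate, and without Psmb5 it was 879 and 640 RPKM. The near equality of the ring sums therefore rested on Psmb5.

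The Psmb5 and Psmb6 promoters are shown because both hold the core of the antioxidant response element, TGACNNNGC. Nfe2l1 and Nfe2l2, basic leucine zipper factors, bind such elements, and Nfe2l1 is known to raise proteasome genes when proteasome activity is short. The 250 bases before the RefSeq start of each gene in GRCm38.p6 are given 5′ to 3′ on the strand of the gene, with the element in capitals, at chr14:54617996-54618245 on the minus strand for Psmb5 and at chr11:70525107-70525356 on the plus strand for Psmb6.
Psmb5: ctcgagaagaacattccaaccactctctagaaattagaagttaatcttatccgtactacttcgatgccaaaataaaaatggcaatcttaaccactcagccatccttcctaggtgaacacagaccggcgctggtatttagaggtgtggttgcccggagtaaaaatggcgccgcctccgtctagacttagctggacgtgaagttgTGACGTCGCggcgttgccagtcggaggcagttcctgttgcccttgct
Psmb6: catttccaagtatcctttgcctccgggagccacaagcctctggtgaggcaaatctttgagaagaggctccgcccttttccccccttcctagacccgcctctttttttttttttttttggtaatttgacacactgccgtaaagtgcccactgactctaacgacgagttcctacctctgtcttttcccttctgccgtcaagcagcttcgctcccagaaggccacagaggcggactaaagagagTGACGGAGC
The element begins 47 bases before the start in Psmb5, where its first bases TGACGT are also part of the cAMP response element, and 9 bases before the start in Psmb6. Windows of 300 bases, which add the 50 bases after the start, were searched on both strands. Of 41 such windows found for 38 of the 46 members, 6 held the element, 14.6%, against 12.4% of all 32851 windows and 15.02% of the 3755 windows of abundant genes. The other holders were Psmc6, Psmd9, Psmd12 and Psme4. The log2 ratios of the 6 genes ran from -0.51 for Psmd12 to 2.83 for Psmb5, with Psmd9 at 0.47 and Psmc6, Psme4 and Psmb6 below 0. These genes did not share a direction. Nfe2l1 itself had 49.6 RPKM with vehicle and 64.8 RPKM with clodronate, and Nfe2l2 had 148 and 106 RPKM.

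The inducible counterparts showed how the pairs of active-site genes stood in each library. Psmb8, which takes the place of Psmb5, had 49.6 RPKM with vehicle and 68.6 RPKM with clodronate. Its level was 1.25 times that of Psmb5 in the vehicle library and 0.238 times in the clodronate library, although Psmb8 itself was higher there. Psmb9, the counterpart of Psmb6, had 23.4 and 33.2 RPKM, or 0.207 and 0.372 times Psmb6. Psmb10, the counterpart of Psmb7, had 55.9 and 35.2 RPKM, or 0.866 and 0.514 times Psmb7. The pairs thus did not move in 1 direction. Of the 5 interferon-gamma targets examined, 2 were higher in the clodronate library and 3 lower, with sums of 255 and 237 RPKM, whereas 6 of 7 genes of the interferon response list were higher.

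**Figure D2:**
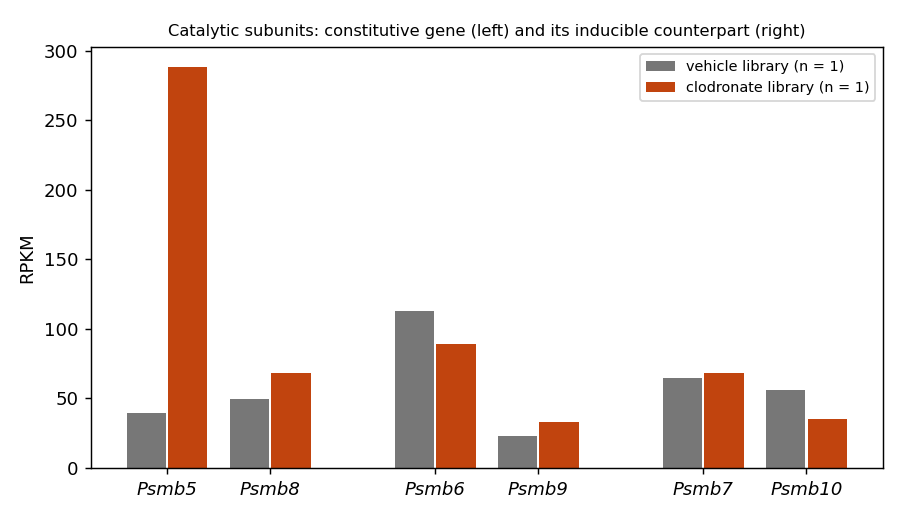
RPKM of the 3 constitutive active-site genes and, to the right of each, the inducible gene that replaces it, in the vehicle (grey) and clodronate (orange) libraries, 1 library each and no error bars. Psmb5 stands at 39.8 and 289 RPKM, while each of the other 5 genes differs between the libraries by less than 2-fold.

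The regulatory particle was less abundant per gene than the core. The median over its 17 genes was 47.8 RPKM with vehicle and 61.7 RPKM with clodronate, against 104 and 94.9 RPKM for the 14 genes of the core. The core median was 2.17 times the particle median in the vehicle and 1.54 times in the clodronate library. Of the 14 core genes 3 had a log2 ratio above 0 and the median was -0.24. Of the 17 particle genes 11 had a ratio above 0 and the median was 0.17. Over all 10982 genes kept, 5664 had a ratio above 0. With GC content and length corrected for, 7 of the 14 core genes lay above 0 with a median of -0.062, so most of the core's shift below 0 was gone, while the particle had 11 of 17 above 0 and a median of 0.17. Summed RPKM was 1600 and 1461 for the core and 1134 and 1146 for the particle, so the sums of the particle hardly differed.

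Among the 6 ATPases of the base, which pull substrates into the core, 5 were close between the libraries. Psmc1 had 83.9 and 70.8 RPKM, Psmc5 had 85.6 and 69.8 RPKM, and Psmc4 had 61.9 and 62.6 RPKM with vehicle and with clodronate. Psmc2 had 45.6 and 41.7 RPKM and Psmc6 had 41.4 and 35.8 RPKM. Psmc3 stood apart from these, with 47.3 RPKM with vehicle and 97.4 RPKM with clodronate, a log2 ratio of 1.02 on about 976 and 1635 reads. The levels of the ATPases spanned a factor of 2.07 from lowest to highest in the vehicle library, and 2.72 in the clodronate library. Among the core and particle groups with more than 3 genes, chaperones and activators left aside, this was the narrowest range in each library.

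The non-ATPase genes of the base were all higher in the clodronate library. Psmd2, the scaffold on which ubiquitin-like domains dock, had 45.0 and 67.8 RPKM. Psmd4, a ubiquitin receptor, had 52.8 and 73.1 RPKM, and Psmd1, the other large scaffold, had 47.8 and 60.2 RPKM. The 3 log2 ratios lay between 0.33 and 0.58, under the 1.5-fold limit. Psmd1 is listed with the same span as Htr2b, which had 2.80 and 1.33 RPKM, and Psmd2 has 1 pseudogene matching over 2726 nt at 96.4% identity.

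In the lid, 6 of 8 genes had a ratio above 0, against 5664 of all 10982 genes kept. Psmd14, the metalloprotease that cuts ubiquitin chains from the substrate, had 26.7 and 40.5 RPKM, the lowest level of the lid in the vehicle library. Psmd7, its inactive partner, had 44.5 and 54.2 RPKM. Psmd8 had 170 and 193 RPKM, Psmd11 had 41.9 and 47.5 RPKM, Psmd13 had 32.2 and 36.3 RPKM, and Psmd3 had 57.9 and 61.7 RPKM. Psmd6 went the other way, with 201 RPKM with vehicle and 99.3 RPKM with clodronate, a log2 ratio of -1.01 on about 3516 and 1414 reads. Psmd12 had 49.0 and 34.1 RPKM, a log2 ratio of -0.51. Psmd6 and Psmd8 stood well above the other lid genes, none of which passed 57.9 RPKM, in the vehicle library.

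The Psmd2 and Psmd4 promoters are shown for another feature, the core of the element bound by ETS family factors, CCGGAAG, which separated the particle from the core in sequence. It is again in capitals in the 250 bases before the start, at chr16:20651402-20651651 on the plus strand for Psmd2, where the element is on the opposite strand and its complement is printed, and at chr3:95042615-95042864 on the minus strand for Psmd4, both in GRCm38.p6.
Psmd2: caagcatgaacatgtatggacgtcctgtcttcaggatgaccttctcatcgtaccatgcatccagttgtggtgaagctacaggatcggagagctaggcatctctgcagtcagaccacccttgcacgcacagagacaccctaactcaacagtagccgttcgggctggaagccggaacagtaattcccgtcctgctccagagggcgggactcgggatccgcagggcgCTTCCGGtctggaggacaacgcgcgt
Psmd4: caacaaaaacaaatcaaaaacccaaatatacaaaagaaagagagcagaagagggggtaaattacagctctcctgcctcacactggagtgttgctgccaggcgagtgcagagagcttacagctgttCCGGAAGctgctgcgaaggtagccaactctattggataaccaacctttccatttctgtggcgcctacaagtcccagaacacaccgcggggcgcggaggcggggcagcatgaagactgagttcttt
The 41 member windows belong to 38 genes, so a gene can count more than 1 time. The element was in 10 of 15 windows of particle genes (66.7%) and in 1 of 12 windows of core genes (8.33%). Over all members it was in 16 of 41 windows (39.0%), against 8.86% of all windows and 17.9% of those of abundant genes. The core gene with it was Psma6. No window was found for Psmb1, Psmb2, Psmb7, Psmc3, Psmd3 and Psmd7, which were not searched. These strings were picked after a wider search of short strings in these windows, so the shares describe this set and are no test. Of the particle genes that held it, Psmc1, Psmc2, Psmc6, Psmd6 and Psmd12 had ratios below 0, and Psmd2, Psmd4, Psmd11 and Psmd13 had ratios above 0. The CCAAT box was in 6 of 12 core windows and 4 of 15 particle windows. It was in 34.1% of all member windows, against 37.4% of all windows and 36.4% of those of abundant genes. The GC box GGGCGG was in 56.1% of member windows, against 35.7% of all windows and 64.4% of those of abundant genes. The TATA box TATAAA was in 7.32%, against 13.6% and 7.83%.

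**Figure D3:**
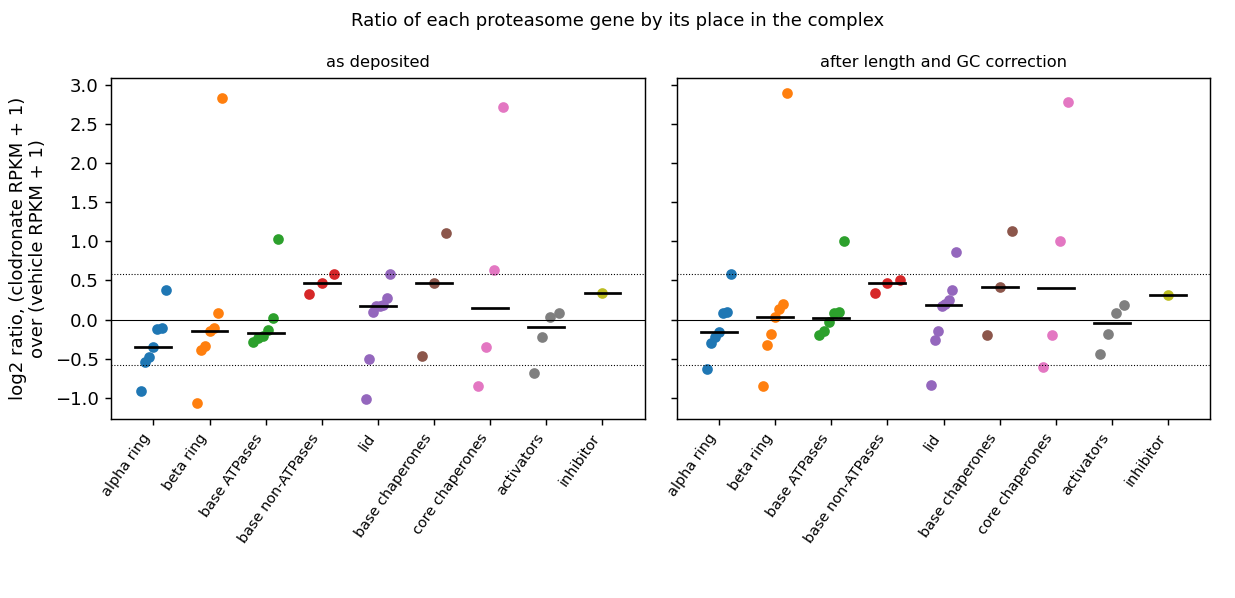
Log2 ratio of clodronate over vehicle RPKM (with 1 added to both) for each gene by its place in the complex, as deposited (left) and after subtracting the trend of all genes with GC content and transcript length (right). Points are genes, black bars are medians of a group and dotted lines mark 1.5-fold. The alpha ring median is -0.35 on the left and -0.15 on the right, while Psmb5 and Psmg3 stay above 2.7 in both.

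Core genes differed from other genes in transcript length and in GC content. The median transcript was 1163 nt long in the core, 1636 nt in the particle and 2801 nt over all genes kept. Median GC content was 48.9% in the core (45.0% in the alpha and 52.2% in the beta ring), 49.7% in the particle and 50.2% over all genes kept. Over all genes kept, the median log2 ratio was -0.19 in the shortest of 10 bins of length and 0.070 in the longest. It was -0.044 in the bin that holds the core's median length and -0.030 in the bin that holds the particle's. The parts of length and GC content in the core's ratios were not told apart. Across the 44 members Spearman's rho with the log2 ratio was 0.40 for length and 0.14 for GC content. Across the 10844 genes with a length it was 0.084 for length and 0.24 for GC content, so over all genes the trend with GC content was the stronger. These points all come from the same pair of libraries. The members that crossed 0 when the trends with GC content and length were subtracted were Psma3, Psma4, Psmb1, Psmb2 and Psmc6, which came to lie above it, and Psmd3, which came to lie below it. The corrected log2 ratio was 2.89 for Psmb5, -0.85 for Psmb3, -0.83 for Psmd6 and -0.63 for Psma1, all past 1.5-fold as before. With the correction 6 members were higher and 4 lower past 1.5-fold. Psmd14 passed the limit, at 0.86, and Psme2 no longer did, at -0.44.

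**Figure D4:**
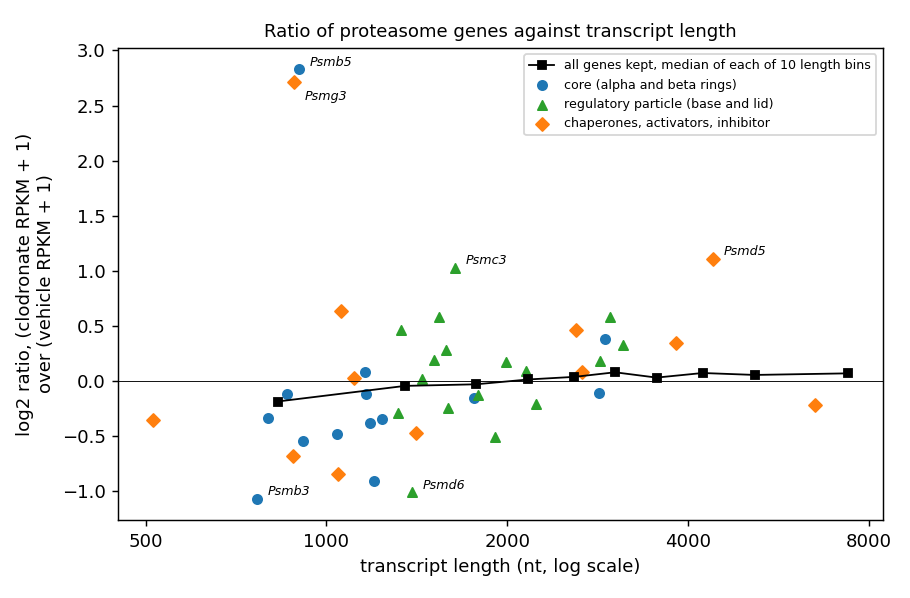
Log2 ratio of clodronate over vehicle RPKM (with 1 added to both) against transcript length (log scale) for the proteasome genes, with the median of all genes kept in 10 bins of length as black squares. Most core genes (blue circles) are short and lie below 0, whereas Psmb5 and Psmg3, also short, lie at 2.83 and 2.72.

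The chaperones that assemble the complex were mostly less abundant than its subunits. Psmg1 and Psmg2, which form a heterodimer that guides alpha ring assembly, went opposite ways. Psmg1 had 32.7 RPKM with vehicle and 17.7 RPKM with clodronate, a log2 ratio of -0.85, and Psmg2 had 9.92 and 16.0 RPKM, a log2 ratio of 0.64 that was 0.58, just under 1.5-fold, with upper quartile scaling. Psmg3 and Psmg4 form the other pair. Psmg3 had 0.342 RPKM with vehicle and 7.83 RPKM with clodronate, a log2 ratio of 2.72, but the vehicle value rested on about 4 reads against about 71, and the gene passed the filter on low values only through the clodronate library. Psmg4 had 20.0 and 15.4 RPKM, a log2 ratio of -0.35 that did not pass 1.5-fold. Of the chaperones of the regulatory particle base, Psmd5 had 5.29 and 12.6 RPKM, a log2 ratio of 1.11 on about 293 and 567 reads. Psmd9 had 7.29 and 10.5 RPKM, and Psmd10, also known as the oncoprotein gankyrin, had 14.4 and 10.1 RPKM. Of these 7 chaperone genes 3 were higher and 1 was lower past 1.5-fold, where 16.6% and 16.3% of all genes kept were, and over all 14 core and 17 particle genes 2 were higher and 3 lower.

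The activators cap the core in place of the regulatory particle. Psme1 and Psme2 encode the subunits of PA28 alpha-beta, which assemble into 1 ring and are induced by interferon-gamma. Psme1 had 182 RPKM with vehicle and 186 RPKM with clodronate, whereas Psme2 had 121 and 75.3 RPKM, a log2 ratio of -0.68 that was -0.44, under 1.5-fold, once GC content and length were corrected for. Psme1 exceeded Psme2 in both libraries. Psme3, the nuclear PA28 gamma, had 69.6 and 73.9 RPKM. Psme4, the large activator PA200 that acts on acetylated histones, had 13.3 and 11.3 RPKM. Psmf1, which encodes the inhibitor PI31, had 7.71 and 10.1 RPKM. Psme1 is listed with the same span as Emc9, which had 6.99 and 6.20 RPKM.

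The wider pathway was described from 31 genes, of which 30 were found and kept. One was higher past 1.5-fold (3.33%), namely Tap1, a subunit of the transporter that carries proteasome products into the endoplasmic reticulum, with 21.3 and 34.0 RPKM, and 5 were lower (16.7%), against 16.6% and 16.3% of all genes kept. The lower genes were Psmb10, Shfm1, Uchl5, Akirin2 and Rps27a. Shfm1, the small lid subunit also called Sem1, had 322 and 197 RPKM. Uchl5, a deubiquitinase of the particle, had 14.9 and 8.69 RPKM, and Usp14, another one, had 14.7 and 12.4 RPKM. Akirin2, which brings proteasomes into the nucleus, had 43.7 and 25.9 RPKM. Pomp, which assists beta ring assembly, had 131 and 101 RPKM. Adrm1, another ubiquitin receptor of the particle, had 70.3 and 83.5 RPKM. The median log2 ratio of the 30 genes was 0.012. Rps27a, which encodes ubiquitin fused to a ribosomal protein, had 1757 and 1071 RPKM, and Ubb, which encodes a chain of ubiquitin units, had 347 and 394 RPKM. Uba1, the enzyme that activates ubiquitin, had 93.8 and 121 RPKM, and Vcp, the segregase that extracts proteins for degradation, had 53.5 and 71.2 RPKM.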

How the data were processed

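The authors deposited RPKM values for 23170 loci per library, and each symbol of the set stood on 1 line. Per the labels, polyA RNA was used, and the submitters' processing notes name CASAVA 1.8.2, TopHat2 2.0.9, Bowtie 0.12.9, Cufflinks 2.2.1, Cuffdiff and the build mm9. Lines of 1 symbol were summed, and 26 numeric symbols were replaced by the accession. Log2 ratios used a pseudocount of 1 RPKM and genes averaging 1 RPKM or more. With 1 library per condition no test was made. Every member could be named, as could the genes of a pathway list and of marker lists. Some genes of the pathway list are not reported here by name. The members and lists were chosen with earlier results of these data known. Lengths and GC content came from GENCODE M21 transcripts with the same RefSeq accession, found for 98.7% of genes kept and for all members kept, and differ in release from the annotation the authors used. For the correction, genes were put in 10 bins by GC content and the bin median was subtracted, then likewise by length. Reads were estimated as RPKM multiplied by length over the step (79.3 and 97.4 RPKM × nt) at which values of loci longer than 1000 nt fell. Pseudogene matches came from blastn 2.17.0 (at least 95% identity over at least 300 nt), found for 8 members. Psma3, Psma4, Psmd1, Psme1 and Psmc3ip share a listed span with another gene, and whether counting used strand is not given in the sources used here. Promoters are RefSeq windows of GRCm38.p6, whose coordinates were not combined with those of mm9. The alternatives were a pseudocount of 0.1, other filters, folds and scalings, the highest line of each symbol and the correction. Scripts were tested on simulated data. Python 3.11.15, numpy 2.4.6, pandas 2.3.3, scipy 1.17.1 and matplotlib 3.10.9 were used.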

Additional observations from a re-analysis of the deposited data

How the results depend on the processing

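No paired analysis was possible because only 1 vehicle and 1 clodronate library were made. With the correction for GC content and length the median log2 ratio of the members turned from -0.11 to 0.087, that of the core moved from -0.24 to -0.062, and the core genes above 0 went from 3 to 7. GC content and length were corrected together, and their parts were not told apart. Upper quartile scaling turned the log2 ratio of the summed particle from 0.015 to -0.047 and that of the summed beta ring from 0.017 to -0.046. Without Psmb5 and Psmg3, chosen after seeing the data, the log2 ratio of the summed beta ring was -0.46 and that of the summed core -0.41 (from -0.13), and 3 members were higher past 1.5-fold in place of 5. With a mean of at least 20 RPKM, 2 members were higher and the activator median turned from -0.095 to 0.029, since Psme4 dropped out, with 10.4% of genes higher. With no filter on low values 10.3% of genes were higher and 9.98% lower. At 2-fold, 4 members were higher and 2 lower, with 6.95% of genes higher and 6.77% lower. At 3-fold, 2 members were higher (Psmb5 and Psmg3) and 0 lower, with 2.86% and 2.32% of genes. These settings change by construction how many genes can pass. With a pseudocount of 0.1, 7 members were higher and 6 lower, with 18.99% of genes higher and 19.01% lower. Taking the highest line of each symbol could move no member, since each stood on 1 line. Under centring 1 and under upper quartile scaling 2 of 44 members changed sign. Genes near 1 RPKM, and Psmg3 in the vehicle library, are limited by depth, and without replicates no spread is known.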
